A study of Mus musculus with 4 samples.

Results

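The 42 genes described here mark cells that copy their DNA or divide, and they were read across the cell classes of the neonatal mouse oviduct and uterus. They form a list of symbols that uses no measured value, though it was chosen with earlier results of these data known. Of the 42, 19 belong to S phase and 23 to G2 phase and mitosis (G2/M), out of 31053 genes in the count tables. Each was followed in 17112 kept cells that marker genes placed in 1 of 7 classes (mesenchyme, smooth muscle, pericytes, blood endothelium, myeloid cells, mesothelium and epithelium). The cells came from wild type CD1 (ICR) mice without treatment at postnatal day 3, with 2 single-cell libraries per organ and 4 in all. The 2 pools behind the libraries held 3 and 4 neonates, and each pool gave both organs. The sources used here do not say which replicate number belongs to which pool, and no single animal can be followed. Enzymes (Dispase II with Collagenase B, and DNase I) took the whole organs apart, and although the labels name mesenchymal and epithelial cells only, muscle, vessel, mesothelial and blood cells were captured too.

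Before DNA is copied, the Mcm proteins are loaded on replication origins as a ring, with the help of Cdc6, and are turned on as a helicase by Cdc45 and cyclin-dependent kinases. Their genes, with those for nucleotide supply and fork proteins, are switched on at the entry into S phase by E2F factors. The genes for mitosis (cyclins A and B, kinetochore and spindle proteins) come on later through B-MYB, FOXM1 and the MuvB complex, which binds CHR elements. A tissue in which many cells divide therefore holds more RNA of both sets. In the newborn tract the epithelium is still a simple tube, and muscle and stroma are being laid down around it.

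The 2 sets differ in the letters of their promoters, which is why 4 promoters are shown. RefSeq promoter sequences (GRCm38.p6, 250 bases before to 50 after the annotated start, 300 in all) were found for 38 of the 42 genes: 17 S members and 21 G2/M members, while Mcm4, Ccne2, Ccna2 and Aurkb had no entry. The motifs searched on both strands were the CHR (TTTGAA), the CCAAT box (CCAAT) and 4 E2F sites (TTTGGCGC, TTTCGCGC, TTTCCCGC and TTTGCCGC). The CHR stood in 15 of 21 G2/M promoters (71.4%) and in 2 of 17 S promoters (11.8%), against 18.1% of the 27025 promoters in the table. A CCAAT box stood in 17 of 21 G2/M promoters (81.0%) and 10 of 17 S promoters (58.8%), against 37.9% of all. Both motifs stood together in 14 G2/M promoters (66.7%) and in 2 S promoters, against 7.12% of all. An E2F site ran the other way, with 6 of 17 S promoters (35.3%) and 1 of 21 G2/M promoters (4.76%), against 2.32% of all. These are matches of letters, counted once per gene; binding was not measured. The 230 bases before the start are printed 5′ to 3′ on the gene's own strand, with every match on either strand in capitals (CCAAT reads ATTGG, and TTTGAA reads TTCAAA, on the other strand). Mki67 and Top2a carry 2 CHR matches each and no E2F match, and Mcm6 and Mcm5 carry E2F matches and no CHR.
Mki67, G2/M, chr7:135716380-135716609, minus strand: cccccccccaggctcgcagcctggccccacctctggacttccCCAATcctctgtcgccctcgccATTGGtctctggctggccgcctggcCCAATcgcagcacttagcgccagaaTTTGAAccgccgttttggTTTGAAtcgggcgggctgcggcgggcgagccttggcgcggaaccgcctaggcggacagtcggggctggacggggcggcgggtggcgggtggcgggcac
Top2a, G2/M, chr11:99024190-99024419, minus strand: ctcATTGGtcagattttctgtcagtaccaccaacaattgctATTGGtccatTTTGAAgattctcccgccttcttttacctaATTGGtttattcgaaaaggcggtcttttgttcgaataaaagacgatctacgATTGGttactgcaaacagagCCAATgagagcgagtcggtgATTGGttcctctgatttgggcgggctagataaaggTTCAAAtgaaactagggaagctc
Mcm6, S, chr1:128359706-128359935, minus strand: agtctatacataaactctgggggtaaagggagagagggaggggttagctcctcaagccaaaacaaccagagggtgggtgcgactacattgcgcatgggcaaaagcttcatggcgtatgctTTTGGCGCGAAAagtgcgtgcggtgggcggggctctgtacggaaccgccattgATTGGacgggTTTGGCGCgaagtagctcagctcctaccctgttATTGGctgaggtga
Mcm5, S, chr8:75109279-75109508, plus strand: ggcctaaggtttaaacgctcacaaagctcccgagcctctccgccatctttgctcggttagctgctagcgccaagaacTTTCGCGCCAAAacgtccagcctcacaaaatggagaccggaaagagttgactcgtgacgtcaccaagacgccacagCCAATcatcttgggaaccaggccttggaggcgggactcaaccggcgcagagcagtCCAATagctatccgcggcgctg

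The values are counts of UMIs (unique molecular identifiers, 1 per captured RNA molecule). The libraries held 5716 to 7808 called barcodes with 61117726 to 114419939 UMIs, and 20164 cells were kept after filters and removal of probable doublets. Any pair of libraries shared 8 to 15 barcodes, at most 0.262% of the smaller one. In 6 of the 7 classes the summed markers of the class itself were the highest of all lists: epithelial cells, for example, held 2079 to 2622 UMIs of 8 epithelial markers per 1000000 UMIs, against 50.7 to 115 of 7 mesenchymal ones. The 7 mesothelial markers, among them Krt19, gave 793 to 990 on that scale in the epithelium. Mesothelium was the exception, with 5807 and 5139 (oviduct) against 9075 and 7391 (uterus) for the mesenchymal markers, above its own, at 3132 to 3547. Mesenchymal markers were lower in uterine mesenchyme (4047 and 3832) than in that of the oviduct (7587 and 7848), and smooth muscle markers likewise (8829 in both uterine libraries, against 12620 and 11648). Whether subtypes inside a gate differ between the organs was not tested for its part in the results. Cells that passed no gate were 8.35% and 10.2% of the kept cells in the oviduct libraries, against 21.9% and 23.6% in the uterine ones. The part of this unequal loss in the results was not tested either. Free RNA, judged from droplets with at most 100 UMIs, made up at most 0.438% of the epithelial UMIs and 1.13% to 7.16% of the mesenchymal ones.

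In every class the members of both sets were found in all 4 libraries. Levels are given as UMIs of the members per 1000000 UMIs of the class (CPM), first summed over a set. In the epithelium the G2/M sum was 1315 and 819.7 for the oviduct against 2194 and 2663 for the uterus. Both uterine libraries lay above both of the oviduct, by 1.19 on the log2 scale of the means. The epithelial S sum was 679.7 and 686.1 (oviduct) against 1074 and 1209 (uterus), a difference of 0.74. In mesenchyme, the stroma that makes up most of both organs, the G2/M sum was 1814 and 1710 in the oviduct against 2004 and 2092 in the uterus. The mesenchymal S sum was 772 and 723 against 928 and 884. Both mesenchymal sums were higher in the uterus without overlap, by 0.22 and 0.28 on the log2 scale. With clusters in place of marker gates the mesenchymal G2/M difference was 0.42, but that class did not hold the same cells. Clusters gave no smooth muscle class. The cells that clusters left without a class had G2/M sums of 1321.5 and 993.5 in the oviduct against 402 and 335 in the uterus. The part of this in the larger difference was not tested.

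Pericytes, the mural cells of small vessels, had G2/M sums of 2949 and 3377 (oviduct) against 2582 and 2566 (uterus). They stood above the other 6 classes in each library but uterus replicate 2, where the epithelium was higher. Their order of organs was the reverse of the epithelial one, and the S sum was also lower in the uterus (891 and 962) than in the oviduct (1218 and 1016). Markers of other classes moved with it: the 8 smooth muscle ones had 2954 and 2802 CPM in oviduct pericytes against 1672 and 1869 in uterine ones, and the 8 blood endothelial ones 191 and 189 against 120 and 122. Their part in the result was not tested. Blood endothelium had G2/M sums of 2356 and 1727 (oviduct) against 2538 and 2444 (uterus). Its S sum was 1028 and 1022 against 1103 and 1048, also higher in the uterus without overlap. Mesothelium, the outer covering of the organs, had the lowest uterine G2/M sum, 1220 and 927, below 1361 and 1728 in the oviduct. Smooth muscle overlapped, with 1370 and 1986 (oviduct) against 1715 and 1350 (uterus). Its S sum overlapped as well, with 858.6 and 1004 against 968.3 and 943.0. The G2/M sums of myeloid cells overlapped too and spread widely, from 1123 to 2287. With 2 libraries against 2, the exact permutation test (2-sided) cannot go below p = 0.333, which is the value of every sum without overlap; the sums are therefore a description of 4 libraries. A larger sum can come from more dividing cells or from more of these RNAs in each, and a sum does not tell them apart.

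**Figure D1:**
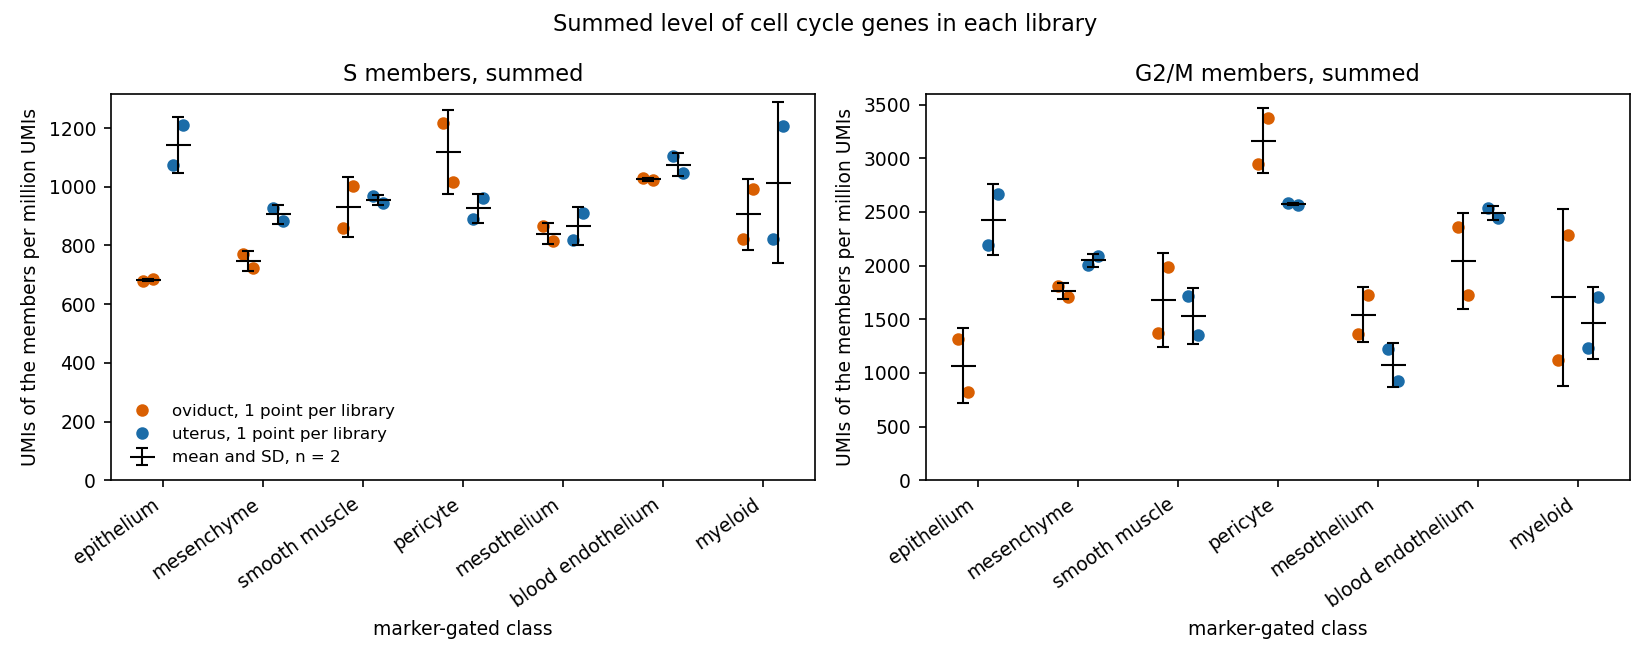
Summed level of the 19 S members (left) and the 23 G2/M members (right) in each class, in UMIs per 1000000 UMIs of that class on the y axis, with 1 point per library and bars for mean and SD (n = 2). The epithelial G2/M sums of the uterus (2194 and 2663) lie above those of the oviduct (1315 and 819.7), while pericytes show the opposite order.

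Single cells were then called by phase. Cells with at least 5000 UMIs were thinned to 5000, and a cell was called G2/M with at least 5 G2/M UMIs and no fewer than its S UMIs, and S with at least 5 S UMIs and more than its G2/M UMIs. Of 16944 cells with that depth, among them cells that passed no gate, 1538 (9.08%) lay at that minimum of 5 or 1 UMI below it. In the epithelium 27.7% and 20.2% of the oviduct cells and 48.1% and 45.8% of the uterine cells were called G2/M. The epithelial S share overlapped between the organs, at 13.9% and 18.4% against 14.8% and 20.8%, but separated in opposite directions in other settings: it was 30.4% and 32.7% against 28.0% and 17.6% without thinning, and 14.2% and 19.1% against 24.3% and 26.3% when thinned to 2000 UMIs. The uterine G2/M shares rest on 27 and 24 cells, with 95% Wilson intervals of 30.7% to 66.0% and 27.9% to 64.9% that cover counting error only. The minimum left out 23 of 50 and 44 of 68 uterine epithelial cells, and 47 of 148 and 100 of 263 in the oviduct. Without thinning, where deep cells pass the minimum more easily, the epithelial G2/M share was 34.5% and 22.8% (oviduct) against 34.0% and 45.6% (uterus), so that the organs overlapped.

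Mesenchyme, with 1946 to 3852 cells per library, gave S shares of 13.1% and 11.5% (oviduct) against 18.4% and 16.5% (uterus). Its G2/M shares were 13.9% and 14.5% against 15.9% and 22.4%. Smooth muscle had S shares of 17.5% and 18.8% against 22.8% and 23.9%, and G2/M shares of 12.3% and 15.6% against 15.7% and 16.1%. In both classes the S share was thus about 5 points higher in the uterine libraries (5.13 points in mesenchyme, 5.21 in muscle), without overlap. In mesenchyme the size depended on how a phase was called: the difference was 2.13 points with a minimum of 8 UMIs, 8.44 with a minimum of 3, 10.4 with a score against control genes and 14.8 without thinning, each without overlap. In smooth muscle the organs overlapped, with a difference of 0.986 points, when a call needed at least 8 UMIs, and with 1.10 points when cells were thinned to 10000 UMIs. The difference there was 13.3 points with a minimum of 3 UMIs or the control-gene score and 14.0 without thinning. The S sum of smooth muscle overlapped between the organs, with a difference of 0.037 on the log2 scale. The S share was lower in the uterus without overlap in 2 classes, with 19.4% and 23.2% against 15.6% and 19.1% in blood endothelium and 19.8% and 18.2% against 17.2% and 16.8% in pericytes. In both classes the organs overlapped without thinning, when thinned to 2000 UMIs and with a minimum of 3 UMIs. In blood endothelium they also overlapped with doublets kept and with clusters in place of gates. The mean share turned higher in the uterus with the control-gene score in endothelium, and without thinning in pericytes. The endothelial S sum was also higher in the uterus without overlap, at 1028 and 1022 against 1103 and 1048 CPM. Pericytes gave G2/M shares of 24.6% and 26.4% against 21.6% and 29.4%, which overlapped. Mesothelial G2/M shares were 19.8% in both oviduct libraries and 11.9% and 17.0% in the uterus, and the organs overlapped without thinning (21.8% and 23.2% against 11.3% and 24.0%) and when thinned to 2000 UMIs (22.5% and 21.0% against 10.0% and 22.0%). Endothelial G2/M shares were 29.9% and 21.4% against 35.9% and 33.3%, and they overlapped without thinning and when thinned to 2000 UMIs. In myeloid cells the call rested on 12 to 34 cells per library, too few to compare.

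**Figure D2:**
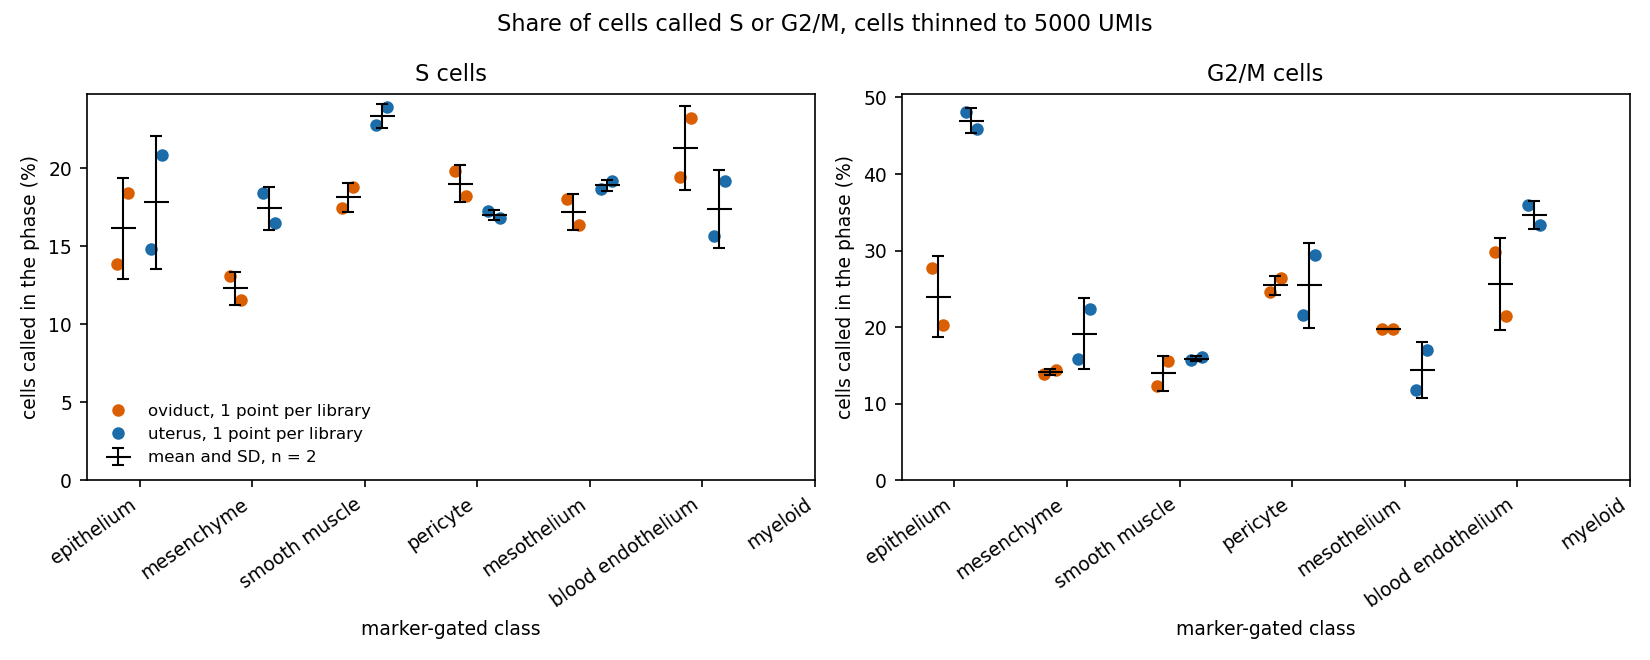
Share of cells called S (left) and G2/M (right) in each class but myeloid cells, in percent of the cells with at least 5000 UMIs, 1 point per library with mean and SD (n = 2). No points are drawn for myeloid cells, since uterus replicate 2 held 12 such cells, under the minimum of 20 per library. The epithelial G2/M share is 48.1% and 45.8% in the uterus against 27.7% and 20.2% in the oviduct, and in mesenchyme and smooth muscle the S share is higher in both uterine libraries. The summed S level of smooth muscle overlapped between the organs.

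The members behind a call were looked at in mesenchyme, the class with most cells. A gene counts towards its own call, so these levels describe the calls and test nothing. Every G2/M member was higher in G2/M-called than in S-called cells, in all 4 libraries. Cenpf, a kinetochore protein of late G2, had 3.46 ± 0.756 UMIs per G2/M-called cell and 0.0666 ± 0.0122 per S-called cell (mean ± SD, n = 4 libraries). Cdk1, the kinase that drives mitosis, was the most shared of the set, with 2.03 ± 0.310 and 0.546 ± 0.0530. Top2a, which untangles sister DNA, came next, with 5.03 ± 0.908 and 1.09 ± 0.160. The S members were less bound to S-called cells. Ung, which removes uracil from DNA, was 9.67 times as high in S-called as in G2/M-called cells (7.05 to 11.5 times over the libraries), the clearest of the 19. Mcm2 to Mcm7, the subunits of the helicase ring, were 1.42 to 3.07 times as high. Rrm1 and Rrm2, the subunits of ribonucleotide reductase, Tyms, which makes thymidylate, and Cdc45, which joins the helicase ring, went the other way, at 0.586, 0.587, 0.813 and 0.803 times. Uhrf1, which keeps DNA methylation on copied strands, stood equal at 1.02 times, between 0.901 and 1.13 over the libraries.

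**Figure D3:**
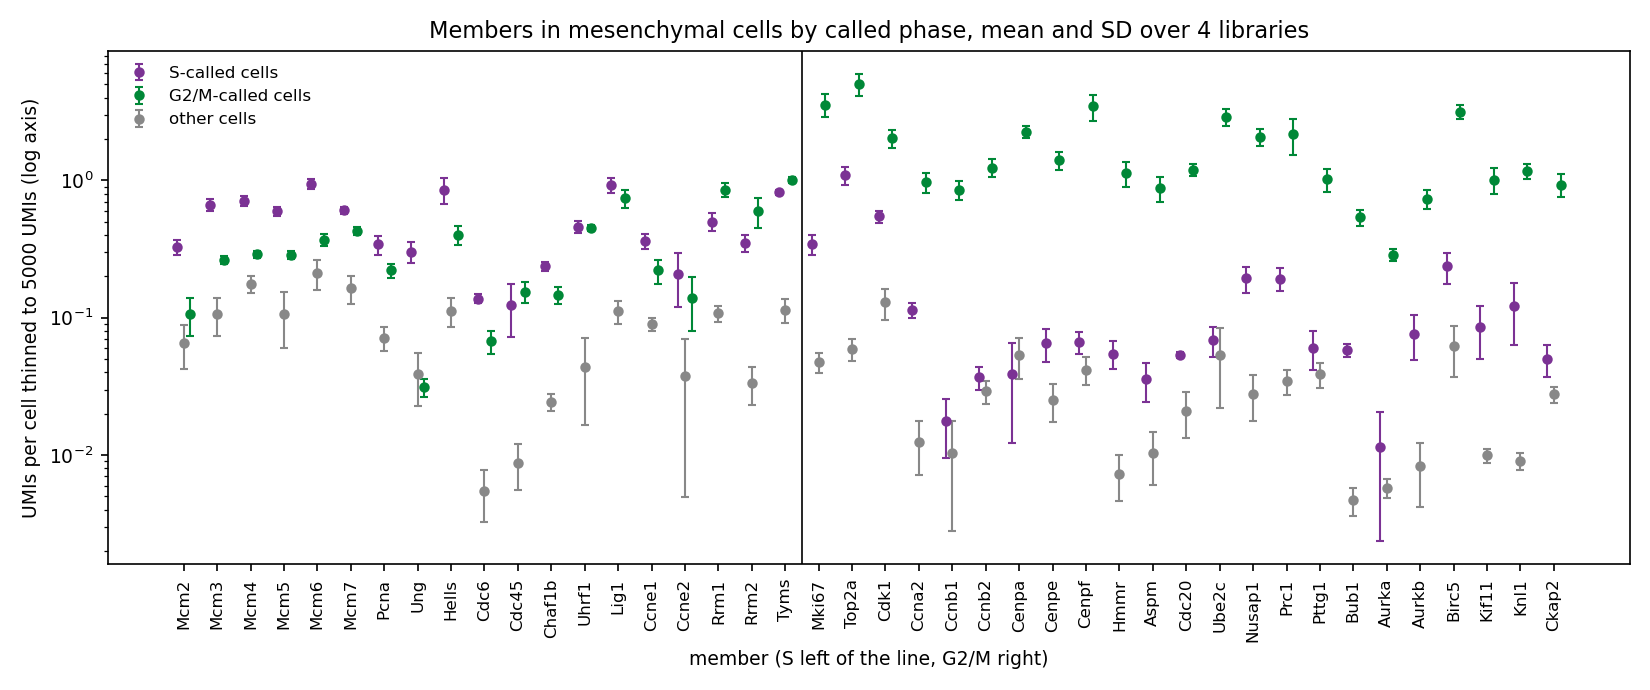
UMIs of each member per mesenchymal cell (log axis, cells thinned to 5000 UMIs) in cells called S, called G2/M or neither, as mean and SD over 4 libraries. All 23 G2/M members stand highest in G2/M-called cells, while Rrm1, Rrm2, Tyms and Cdc45 of the S set are higher there than in S-called cells.

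Gene by gene, the organs were compared within each class on UMI sums per library with edgeR's quasi-likelihood test, and a gene was called at an adjusted p under 0.05 over all genes of the class. All log2 fold changes between organs are uterus minus oviduct, with standard errors (SE). In the epithelium all 23 G2/M members were higher in the uterus, and 7 of 19 S members were, with 0 lower. Over all 12157 genes tested there, 9.9% were higher in the uterus and 15.1% lower. The median log2 fold change was 1.06 for the G2/M members and 0.49 for the S members, against -0.01 for all genes. All 42 members passed the filter on low counts. The epithelial sums came from 148 and 263 oviduct cells and from 50 and 68 uterine cells, the latter with 1282054 and 2036331 UMIs. Among the uterine cells with at least 5000 UMIs, 13 and 11 were called G2/M, with median depths of 53440 and 123040 UMIs. How far the calls rest on these few deep cells was not tested. DESeq2 called 16 G2/M and 4 S members higher, against 3.72% of all genes in that fit. Without uterus replicate 2 edgeR called 19 members in place of 30, against 18.6% of all genes in either direction. Blood endothelial markers moved with the organ in the epithelial gate, from 67.4 and 50.1 CPM in the oviduct to 28.1 and 26.0 in the uterus. Mesenchymal ones went from 115 and 72.8 to 50.7 and 63.8, and lymphoid ones from 24.2 and 21.4 to 7.80 and 7.37. Myeloid ones went the other way, from 7.04 and 3.93 to 14.8 and 17.7. The part of these markers in the result was not tested. Both uterine libraries also lay above both oviduct libraries for 38.8% of all genes, so that lack of overlap alone says little.

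Among the G2/M members Knl1, the scaffold of the kinetochore, had 20.3 and 14.8 CPM in the oviduct epithelium and 53.8 and 44.2 in the uterine one. That is 2.53-fold, a log2 fold change of 1.34 (SE 0.22, edgeR adjusted p = 0.000109). Mki67, whose protein Ki-67 coats mitotic chromosomes, stood at 108 and 64.2 against 286 and 195 (1.34, SE 0.22, edgeR adjusted p = 0.000158). Aurkb, the kinase of the chromosomal passenger complex, stood at 19.8 and 11.3 against 32.0 and 48.6 (1.29, SE 0.27). The mitotic cyclin Ccnb1 stood at 32.5 and 18.6 against 51.5 and 80.0 (1.28, SE 0.25). Ccna2, the cyclin of S phase and G2, stood at 27.6 and 20.8 against 59.3 and 65.8 (1.25, SE 0.20). Top2a stood at 128 and 88.2 against 282 and 250.0 (1.16, SE 0.19). In each of these 6 genes both uterine libraries were above both of the oviduct, and oviduct replicate 2 was the lowest of the 4. The smallest difference of the set was that of Cenpf, with 0.66 (SE 0.21, edgeR adjusted p = 0.0244), a call that was lost without oviduct replicate 2.

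The 7 S members that were higher in the uterine epithelium were Tyms, Rrm1, Uhrf1, Mcm7, Rrm2, Pcna and Mcm5. Tyms had 65.9 and 49.1 CPM in the oviduct, against 122 and 169 on the uterine side (1.23, SE 0.20, edgeR adjusted p = 0.000128). Pcna, the sliding clamp of DNA polymerase, had 19.3 and 22.5 against 35.9 and 37.3 (0.68, SE 0.21, edgeR adjusted p = 0.0217). Mcm6 had 59.7 and 70.3 against 97.5 and 98.2 and did not pass (0.46, SE 0.17, edgeR adjusted p = 0.0626). Tyms, Rrm1 and Rrm2 of these 7 also stood higher in G2/M-called than in S-called mesenchymal cells. The calls on Pcna, Rrm2 and Mcm5 were each lost without oviduct replicate 1 or uterus replicate 2. The remaining 12 S members had fitted differences between -0.22 (Ung) and 0.67 (Cdc45).

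The oviduct epithelium held 24 and 40 multiciliated cells in its 2 libraries, by UMIs of Foxj1, Dynlrb2, Rsph1 and Cfap126, and the uterine epithelium held 0. These cells carry motile cilia. Their G2/M sum was 381 and 421 CPM, against 1752 and 917 in the other oviduct epithelial cells, and 2 of 23 and 4 of 32 of them were called G2/M (8.70% and 12.5%), against 33.3% and 22.1% of the others. Called S were 4 of 23 and 3 of 32 (17.4% and 9.38%), against 12.8% and 20.6% of the others, with no common order in the 2 libraries. Without them, as an alternative chosen after seeing the data, 13 of 23 G2/M members and 4 of 19 S members were called higher in the uterus (7.9% of all genes), with a median G2/M difference of 0.82. Depth differed as well. The median epithelial cell held 18739 and 12128 UMIs in oviduct libraries, against 5279 and 2299.5 in uterine ones, and G2/M-called epithelial cells held medians of 39627 to 123040 UMIs, against 22730 to 27445 in cells called neither. With each cell thinned to 5000 UMIs, also chosen after seeing the data, the median G2/M difference was 1.00, while 5 of the 18 G2/M members tested were called (3.35% of all genes) and 0 of 11 S members. With both changes the median was 0.68 and 1 of 17 was called, near the 3.05% of all genes. Thinning leaves fewer UMIs behind each gene. How far depth enters the unthinned fold changes was not tested beyond these values.

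In mesenchyme 14 of 23 G2/M members and 11 of 19 S members were higher in the uterus, against 19.1% of the 15408 genes tested, and 1 S member was lower, against 21.5% (40.6% in either direction). The medians were 0.28 for both sets and 0.01 for all genes. Markers of other classes moved with the organ in the mesenchymal gate too: the 7 mesothelial ones had 56.9 and 57.4 CPM in the oviduct against 16.0 and 14.7 in the uterus, and the 8 smooth muscle ones 1442 and 1537 against 1749 and 1753. Their part in the result was not tested. Ung showed the largest rise, from 13.2 and 12.7 CPM in the oviduct to 23.8 and 20.3 in the uterus (0.80, SE 0.09, edgeR adjusted p = 2.28e-05). Mcm5 had 36.9 and 35.4 against 58.2 and 55.1 (0.68, SE 0.08). Uhrf1 had 32.1 and 31.7 against 52.0 and 47.2 (0.67, SE 0.08). Of the G2/M set, Cdc20, which activates the anaphase-promoting complex, had 47.7 and 42.7 against 59.0 and 71.9 (0.58, SE 0.11), and Aurka, the kinase of the spindle poles, 12.4 and 12.1 against 16.4 and 18.4 (0.54, SE 0.10). In all 5 both uterine values lay above both oviduct values, as they did for 31.9% of all genes.

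Ccne2, cyclin E2 of the step from G1 to S, was the exception. It had 26.2 and 24.3 CPM in oviduct mesenchyme and 12.8 and 9.43 in uterine mesenchyme, a fall by 1.15 on the log2 scale (SE 0.11, edgeR adjusted p = 6.62e-06). Its relative Ccne1 had a difference of 0.16 and was not called. Mki67 had 150.3 and 164 against 183 and 182 (0.25, SE 0.08, edgeR adjusted p = 0.027), and that call was lost without any 1 of the 4 libraries. Mcm6 had 65.7 and 60.6 against 86.7 and 80.8 (0.44, SE 0.08, edgeR adjusted p = 0.00125). Pcna had 29.0 and 30.8 against 32.4 and 32.3 and was not called (0.15, SE 0.08, edgeR adjusted p = 0.154), and neither was Top2a, with 254 and 247 against 274 and 267 (0.15, SE 0.08, edgeR adjusted p = 0.1535). Without oviduct replicate 2 the count of called members fell from 26 to 14, against 31.0% of all genes. With every cell thinned to 5000 UMIs, 13 G2/M and 8 S members were higher and 1 S member lower, against 13.5% of all genes higher and 16.5% lower.

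**Figure D4:**
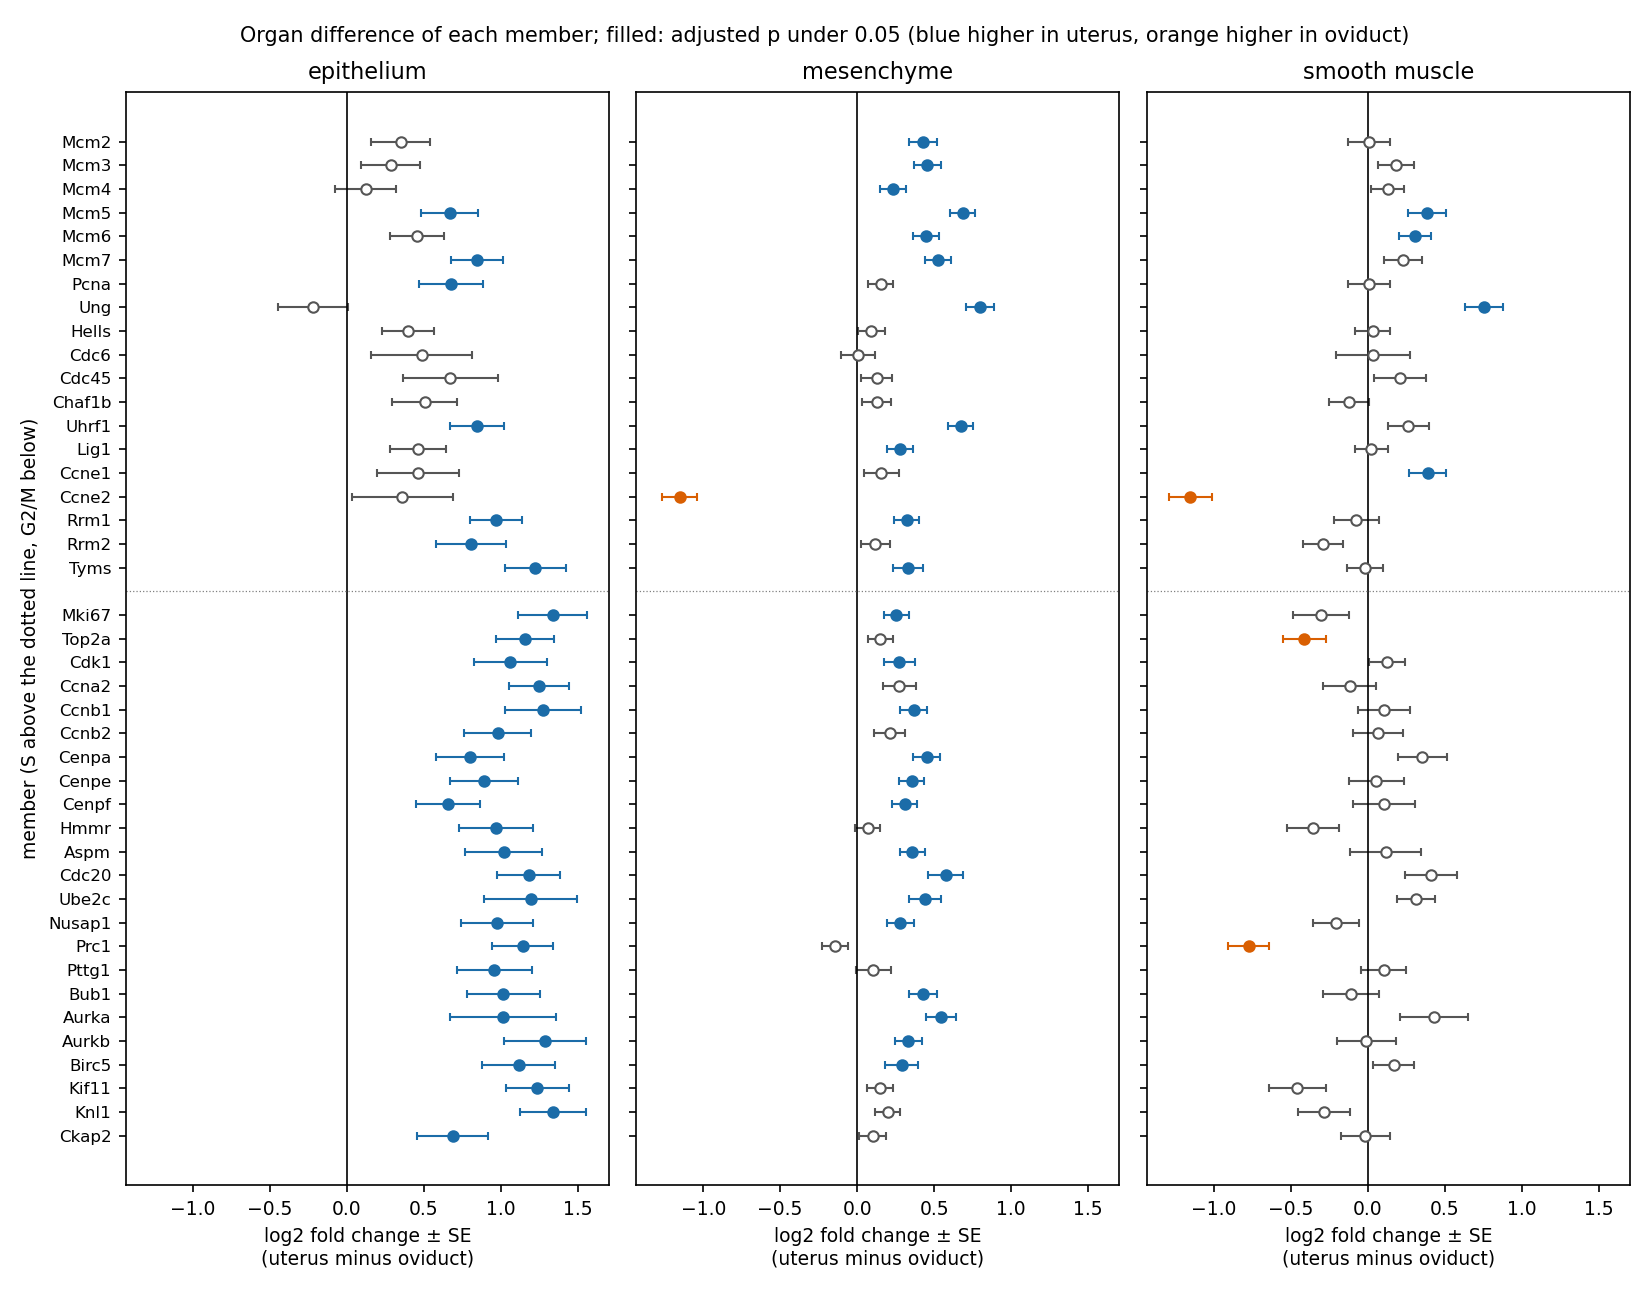
Log2 fold change (uterus minus oviduct, with SE bars) of each member in epithelium, mesenchyme and smooth muscle, with filled points for an adjusted p under 0.05. All 23 epithelial G2/M members lie between 0.66 and 1.34, the mesenchymal ones lie lower, and Ccne2 stands alone at -1.15 in both mesenchyme and smooth muscle.

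In smooth muscle 4 S members were higher in the uterus, 1 S member lower and 2 G2/M members lower. Over its 12703 genes 12.1% were higher, 14.4% lower and 26.5% called in either direction, so that the 7 of 42 members called were not above the share of all genes. Mesenchymal markers in this gate had 3587 and 3388 CPM in the oviduct against 2525 and 2323 in the uterus, and their part was not tested. Ccne2 had 27.2 and 30.1 CPM in the oviduct, against 12.6 and 12.2 on the uterine side, a fall by 1.15 (SE 0.14, edgeR adjusted p = 1.44e-05). Ung had 20.8 and 20.6 against 32.3 and 34.9 (0.76, SE 0.12, edgeR adjusted p = 0.000268). Mcm5, Ccne1 and Mcm6 rose by 0.39, 0.39 and 0.31, and each of these calls was lost without at least 2 of the libraries in turn. Prc1, which bundles the microtubules of the spindle midzone, had 102 and 141 against 71.9 and 64.6, a fall by 0.77 (SE 0.13, edgeR adjusted p = 0.000399), and both uterine values lay below both oviduct values, as for 36.7% of all genes. Top2a had 204 and 292 against 201 and 157, a fall by 0.41 (SE 0.14, edgeR adjusted p = 0.0422) that was lost without oviduct replicate 2 or uterus replicate 2. Mki67, with 120 and 183 against 145 and 91.1, overlapped between the organs and was not called, and Pcna overlapped as well. Without oviduct replicate 2 the count of called members was 11 in place of 7, against 21.5% of all genes.

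In pericytes 2 of 23 G2/M members were called lower in the uterus, against 4.04% of 9876 genes lower, 2.06% higher and 6.1% in either direction, and 0 S members were called. They were again Prc1, with 252 and 276 CPM in the oviduct, against 172 and 138 on the uterine side (a fall by 0.73, SE 0.13, edgeR adjusted p = 0.000126), and Top2a, with 382 and 391 against 278 and 252 (a fall by 0.50, SE 0.11). The call on Top2a was lost without uterus replicate 2. Mki67, with 218 and 311 against 246 and 217.5 CPM, overlapped between the organs, and the differences of Pcna and Mcm6 were -0.24 (SE 0.19) and -0.29 (SE 0.15). Without oviduct replicate 2 the count was 5 in place of 2, against 5.14% of all genes. Fitted differences were below 0 for 38 of the 42 members, but with each cell thinned to 5000 UMIs only for 22 of the 40 tested, with 18 above 0 and 0 called (1.58% of all genes called lower). In mesothelium 2 G2/M members and 1 S member were called lower, against 3.82% of 12632 genes lower, 2.97% higher and 6.78% in either direction. Cenpf had 117 and 185 CPM in the oviduct, against 81.8 and 48.3 on the uterine side (a fall by 1.22, SE 0.25, edgeR adjusted p = 0.014), Ccnb2, a mitotic cyclin, 47.4 and 64.2 against 26.7 and 36.4 (a fall by 0.82, SE 0.22, edgeR adjusted p = 0.0479), and Chaf1b, a subunit of chromatin assembly factor 1, 36.8 and 32.3 against 20.4 and 21.4 (a fall by 0.73, SE 0.20, edgeR adjusted p = 0.0493). The call on Ccnb2 was lost without uterus replicate 1, and that on Chaf1b without oviduct replicate 1, uterus replicate 1 or uterus replicate 2. Without oviduct replicate 1 this count was 14 in place of 3, against 10.7% of all genes, and it was 5 when oviduct replicate 2 was left out, against 9.07%. All 23 mesothelial G2/M members had fitted differences below 0, with a median of -0.46, on 62 and 50 uterine cells. With each cell thinned to 5000 UMIs 19 were below 0 and 4 above, with 1 called lower (1.59% of all genes). Markers of other classes moved with this difference: the 7 mesenchymal ones as given above, and the 8 smooth muscle ones from 658 and 571 CPM in oviduct mesothelium to 1300 and 1231 in uterine mesothelium. Their part in the result was not tested. The difference of the mesothelial G2/M sums was -0.52 on the log2 scale, and -0.27 with probable doublets kept. The count of called members was 0 with doublets kept and 10 with clusters in place of gates, in place of 3. The shares of all genes in those 2 fits are not given here. A fit with the replicate number as a block, which fits the shared pools if the numbers follow them, called 10 of the G2/M members lower in mesothelium, against 6.95% of all genes lower in the same fit. Mki67 had 142 and 174 CPM in oviduct mesothelium and 129 and 100.5 in uterine mesothelium, and was not called without the block (edgeR adjusted p = 0.112). Top2a had 168 and 197 against 136 and 130 CPM and was not called either (edgeR adjusted p = 0.0623), nor were Pcna and Mcm6, at 0.08 (SE 0.19) and 0.16 (SE 0.15).

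Blood endothelium and myeloid cells gave 0 called members by edgeR and 0 by DESeq2. At an unadjusted edgeR p under 0.05 there were 6 members in endothelium and 3 in myeloid cells. Without oviduct replicate 1 there were 4 calls in endothelium (3.67% of all genes), and without uterus replicate 1 there was 1 in myeloid cells (1.48%). Of all genes, 3.25% of 11129 were called in endothelium (0.737% higher and 2.52% lower) and 0.186% of 5915 in myeloid cells (0.0338% higher and 0.152% lower). Endothelial fitted differences were above 0 for all 23 G2/M members, between 0.02 and 0.47. Markers of other classes differed by organ in this gate. The 8 smooth muscle ones had 131 and 73.6 CPM in the oviduct against 52.3 and 58.7 in the uterus. The 7 mesenchymal ones had 138 and 87.7 against 57.9 and 84.7, and the part of these markers was not tested. Mki67 had 215.6 and 182 CPM in oviduct endothelium, against 280.0 and 180.5 in that of the uterus, and Top2a had 296 and 216 against 347.5 and 254; both overlapped. Pcna had a difference of -0.15 (SE 0.16) in endothelium, and Mcm6 of 0.08 (SE 0.15). In myeloid cells the fitted differences were -0.84 (SE 0.37) for Mki67, -0.64 (SE 0.42) for Top2a, -0.69 (SE 0.39) for Pcna and 0.01 (SE 0.35) for Mcm6. Only 35 of the 42 members passed the filter on low counts in myeloid cells, which held 34 to 77 cells per library.

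Whether the organ difference is of unlike size in 2 classes was tested as an interaction, coded as the organ difference of the class minus that of mesenchyme. For epithelium 17 of 23 G2/M members were called above 0 and 0 below, and 4 S members above and 1 below, against 6.93% of 15682 genes above 0 and 13.6% below. The median was 0.69 for G2/M members and -0.14 for all genes. Prc1 gave 1.21 (SE 0.16, edgeR adjusted p = 4.72e-08), Knl1 1.05 (SE 0.19) and Mki67 1.01 (SE 0.18). Ccne2 gave 1.45 (SE 0.34), since it fell in mesenchyme and had a difference of 0.36 in the epithelium. Ung gave -1.09 (SE 0.22, edgeR adjusted p = 0.000172), since it was called higher in uterine mesenchyme and had a difference of -0.22 in the epithelium. DESeq2 called 6 G2/M and 3 S members, all above 0 (4.23% of all genes), and 8 G2/M members were called above 0 without multiciliated cells (5.63% of all genes) and 3 with thinned cells (1.01%). Without oviduct replicate 2 the count over all members was 10 in place of 22, against 13.7% of all genes, and without uterus replicate 2 it was 11, against 14.4%. For smooth muscle 4 G2/M members (Prc1, Kif11, Mki67 and Top2a) and 4 S members (Mcm2, Uhrf1, Rrm2 and Tyms) were called below 0 and 0 above, against 4.74% of 14816 genes below and 4.96% above. Leaving out oviduct replicate 1 gave 29 such members, against 5.32% of all genes, oviduct replicate 2 gave 4, uterus replicate 2 gave 0, and DESeq2 gave 0.

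Each class was also compared with mesenchyme of its own library, with library as a block, so that these log2 fold changes are class minus mesenchyme. Pericytes stood out by the mitotic set: 18 of 23 G2/M members were higher and 0 lower, with 5 S members higher and 1 lower, against 17.0% of 13715 genes higher, 19.0% lower and 36.0% in either direction. The largest were Prc1 (0.90, SE 0.13), Pttg1, the securin that holds back separase (0.88, SE 0.10), and Cenpa, the histone H3 of centromeres (0.84, SE 0.10, edgeR adjusted p = 0.000138). Cenpa had 163 and 179 CPM in oviduct pericytes and 166 and 183 in uterine ones, all above mesenchyme with 78.4 to 112. With cells thinned to 5000 UMIs 11 G2/M members were called higher, against 12.4% of all genes in that fit. With clusters in place of gates, for mesenchyme as well, the pericyte count over both sets fell from 24 to 7. The share of all genes in the fit with clusters is not given here. Mesothelium was the reverse of pericytes, with 14 G2/M members lower and 0 higher, and 2 S members lower and 2 higher, against 21.3% of 14634 genes lower and 22.5% higher. Its largest falls in the G2/M set were Cenpa (by 0.96, SE 0.24), Aurka (by 0.90, SE 0.18) and Top2a (by 0.87, SE 0.15). The share of mesothelial cells called G2/M was above that of mesenchyme in the oviduct (19.8% in both libraries, against 13.9% and 14.5%). In the uterus it was below, at 11.9% and 17.0% against 15.9% and 22.4%. G2/M-called cells held medians of 14.5 to 27 thinned G2/M UMIs in mesothelium, against 28 to 40 in mesenchyme. Without oviduct replicate 1 there were 11 calls over both sets in place of 18, against 28.8% of all genes.

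Smooth muscle differed from mesenchyme in the S set: 9 of 19 S members were higher (Ung, Chaf1b, Mcm3, Hells, Mcm7, Uhrf1, Mcm6, Cdc45 and Mcm4) and 0 lower, against 13.6% of 14101 genes higher. Ung led with 0.74 (SE 0.07, edgeR adjusted p = 0.000497), followed by Chaf1b with 0.53 (SE 0.09). Of the G2/M set 0 members were called in smooth muscle by edgeR and by DESeq2, with 1 at an unadjusted edgeR p under 0.05. Without oviduct replicate 2 the count over both sets was 15 in place of 9, against 16.6% of all genes. Blood endothelium had 9 S members higher and 1 lower, and 7 G2/M members higher and 4 lower, against 30.2% of 14018 genes higher and 34.4% lower, so that the share of its members called was not above that of all genes. Chaf1b (0.95, SE 0.08) and Mcm3 (0.87, SE 0.14) were highest there.

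Myeloid cells had 5 S members higher (Mcm3, Mcm2, Mcm5, Pcna and Mcm6), 2 lower, and 7 G2/M members lower, against 19.8% of 13709 genes higher and 29.3% lower; the median of all genes was -0.30 there. Without oviduct replicate 1 there were 7 myeloid calls in place of 14, against 39.2% of all genes. In each library the share of cells called G2/M was higher in epithelium (20.2% to 48.1%) than in mesenchyme (13.9% to 22.4%). Those epithelial cells held medians of 11 to 22 thinned G2/M UMIs, against 28 to 40 in mesenchyme. By summed counts, epithelium had 4 S members higher and 5 lower, and 1 G2/M member higher and 8 lower, against 23.9% of 14391 genes higher and 27.6% lower. These are 18 epithelial calls, against 6 without oviduct replicate 1 (36.5% of all genes) and 8 without oviduct replicate 2 (38.0%). Ccne1, the other E cyclin, was called lower than in mesenchyme in 5 of the 6 classes. In mesothelium its level in uterus replicate 2 went the other way, at 36.4 CPM against 32.9 in mesenchyme, and that call was lost without either oviduct library. The call in pericytes was lost without oviduct replicate 1 or either uterine library. It had 28.1 to 37.1 CPM in mesenchyme, against 10.5 to 12.6 in blood endothelium (a fall by 1.65, SE 0.12, edgeR adjusted p = 2.96e-05) and 10.6 to 19.6 in epithelium (a fall by 1.20, SE 0.12). In smooth muscle, the sixth class, it had 27.2 to 36.2 CPM and was not called. Ccne2 was called lower in epithelium, mesothelium and myeloid cells, but each of these calls was lost without either oviduct library. In mesothelium it had 8.76 and 6.81 CPM against 26.2 and 24.3 in mesenchyme of the oviduct, but 12.6 and 9.49 against 12.8 and 9.43 in the uterus. In uterus replicate 2 the epithelial level was 9.33 and the myeloid one 16.5, the latter above mesenchyme on 6 UMIs.

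**Figure D5:**
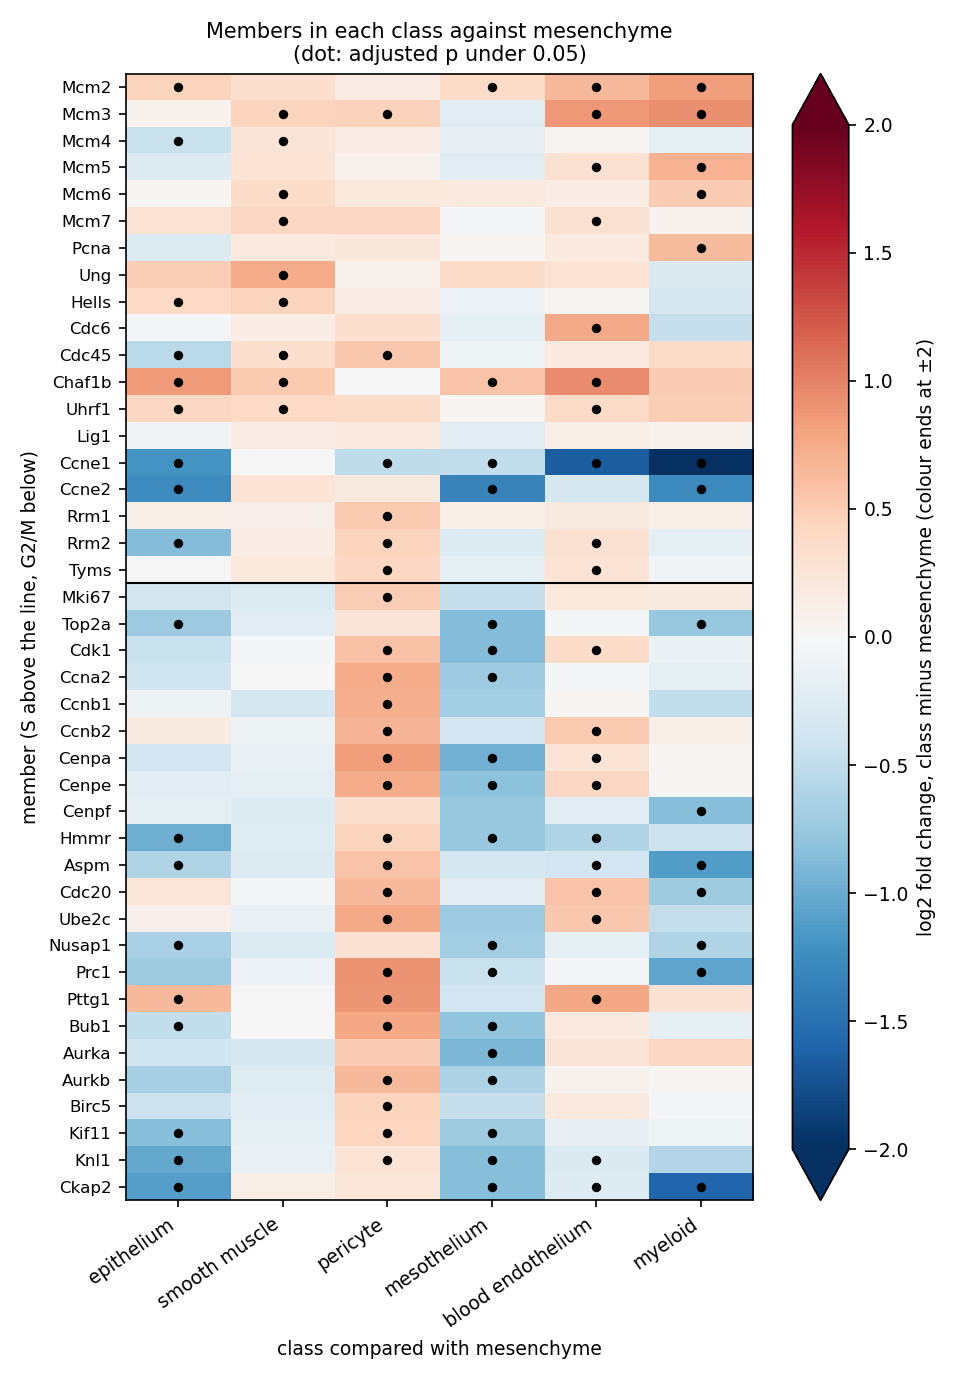
Log2 fold change of each member in 6 classes against mesenchyme (colour, class minus mesenchyme, red higher and blue lower), with a dot where the adjusted p was under 0.05. The G2/M block is red in pericytes (18 of 23 called) and blue in mesothelium (14 of 23 called), and Ccne1 is blue in 5 of 6 classes. These counts are to be read beside the shares of all genes called in the same fits, given in the text. With clusters in place of gates, which are not drawn, the pericyte calls over both sets fell from 24 to 7. Mesenchyme was then taken from clusters too, and the share of all genes is not given.

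Other genes of the cycle were read from lists chosen beside the members. Of 25 further spindle, checkpoint and cytokinesis genes 21 were higher in the uterine epithelium and 0 lower, with a median of 1.08, against 9.9% of all genes higher and a median of -0.01. Ttk, a checkpoint kinase, had 7.32 and 4.64 CPM in the oviduct, against 25.0 and 15.2 on the uterine side (1.57, SE 0.32), and Bub1b, another checkpoint protein, 16.8 and 12.7 against 43.7 and 47.6 (1.51, SE 0.22). In mesenchyme 16 of the 25 were higher, against 19.1% of all genes, led by Cdc25b, a phosphatase that activates Cdk1 (0.72, SE 0.09), and Kif2c, a kinesin that takes microtubules apart (0.53, SE 0.09), and 1 was lower, Mad2l1 (a fall by 0.52, SE 0.15). Of 21 further licensing and fork genes 9 were higher in the uterine epithelium and 10 in uterine mesenchyme, with 0 lower, against the same 9.9% and 19.1% of all genes higher. Fen1, which trims Okazaki fragments, rose in both (1.35, SE 0.21, and 0.60, SE 0.09), as Mcm10 did in epithelium (1.63, SE 0.32) and Gins1, a helicase partner, in mesenchyme (0.61, SE 0.10).

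Regulators of these genes were read in the same way. Of 6 mitotic transcription factor genes Foxm1 and Mybl2 were higher in the uterine epithelium (1.34, SE 0.29, and 1.24, SE 0.35), and Lin9 and Lin54 of the MuvB complex were lower in uterine mesenchyme (falls by 0.62, SE 0.08, and 0.33, SE 0.10). These are 2 of 6 in each class. In the epithelium 9.9% of all genes were higher and 15.1% lower; in mesenchyme 21.5% of all genes were lower and 40.6% called in either direction, so that the list did not stand above all genes there. Of 13 E2F and pocket protein genes none passed in the epithelium by edgeR, where E2f3, for example, had a difference of 0.49 (SE 0.22, edgeR adjusted p = 0.111). In mesenchyme 3 rose, led by E2f3 and Tfdp1 (0.54, SE 0.08, and 0.38, SE 0.08). Another 3 fell there, led by Rb1, the retinoblastoma gene that restrains E2F factors, which fell by 1.43 (SE 0.10), and E2f5, which fell by 0.31 (SE 0.08). These 6 of 13 lie near that 40.6%.

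Of 10 inhibitor genes 7 were lower and 1 higher in uterine mesenchyme, with a median of -0.68, against 21.5% of all genes lower, 19.1% higher and a median of 0.01. In the epithelium 3 of 9 tested were lower and 2 higher. Of 8 tested, 6 were lower and 1 higher in smooth muscle (median -0.48), and 4 and 1 in pericytes (-0.59). Blood endothelium had 3 of 8 lower, mesothelium 2 of 8 and myeloid cells 0 of 8, with 0 higher. The shares of all genes in these classes are given above. Cdkn1a and Btg2 were called lower in every class but myeloid cells. Cdkn1a, which encodes p21, a brake on cyclin-dependent kinases that p53 and cell stress also induce, had 92.8 and 93.1 CPM in oviduct mesenchyme and 9.12 and 13.3 in uterine mesenchyme, a fall by 3.00 (SE 0.15, edgeR adjusted p = 1.62e-08). In the epithelium it had 259 and 242 against 53.8 and 37.3 (a fall by 2.62, SE 0.20). Btg2, which is known as an early response gene too, was lower in both. Gas1 was lower in the uterine epithelium (a fall by 2.15, SE 0.20). Cdkn1c, the imprinted inhibitor p57, went the other way, with 124 and 91.2 against 305 and 289.7 CPM in epithelium (1.33, SE 0.18) and 0.41 (SE 0.09) in mesenchyme, as did Cdkn2b in epithelium (2.44, SE 0.38, at 2.02 to 14.8 CPM). Cdkn2a was called lower in uterine mesenchyme at levels under 1 CPM. Of 6 G1 cyclins and kinases Ccnd1, cyclin D1, rose in uterine mesenchyme from 31.6 and 31.8 CPM to 119 and 107 (1.88, SE 0.08, edgeR adjusted p = 5.99e-09) with Cdk6 (0.79, SE 0.10), while Ccnd3 fell by 0.53 (SE 0.10); these 3 of 6 lie near the 40.6% of all genes called there. In the epithelium Ccnd2, with 187 and 207 against 417 and 372 CPM (0.86, SE 0.17), and Cdk2 (0.70, SE 0.24) were higher in the uterus.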

How the data were processed

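Single-cell RNA-seq (10x 3' v3.1) of 4 libraries was analysed. Per the file headers, the deposited called-cell matrices hold UMI counts from Cell Ranger 6.0.1, and the matrices of all barcodes, used for free RNA only, come from version 4; the submitters' processing notes name Cell Ranger, Seurat 4.2.3 and mm10. From these counts, barcodes were kept that had 500 or more genes with no more than 15% of UMIs mitochondrial (scanpy 1.11.5, Python 3.11.15). Scrublet itself called only 1, 1, 2 and 0 doublets and had not worked, so its top scores were removed at 0.8% per 1000 barcodes (1162 of 21326 cells). Classes were gated on marker scores (at least 0.2, margin 0.05); cells with over 5% haemoglobin UMIs were set aside, and cells passing no gate are not in the 7 classes. Median depth was 9608 to 11890.5 UMIs per barcode.

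UMIs were summed per library and class and tested with edgeR 4.0.16 (quasi-likelihood, TMM, filterByExpr, R 4.3.3) with Benjamini-Hochberg adjustment at 0.05, after tests on simulated data; DESeq2 1.42.0 was an alternative. P-values measure the spread between libraries, with 2 per organ. The rule for named genes takes, per direction, the 5 members with the largest called organ difference without overlap in mesenchyme, epithelium and smooth muscle. In every other class it takes the 2 largest. Mki67, Top2a, Pcna and Mcm6 are given whatever their result. Of each other list it takes the 2 largest called changes per direction, in mesenchyme and epithelium only. Called genes of these lists in other classes are not given in full. Other genes given with values were chosen after their values were seen. Members and lists were chosen with earlier results of these data known. The gate's scale, the multiciliated rule and the alternatives on thinned cells and multiciliated cells were chosen after seeing the data. Same-numbered libraries had deviations correlated at 0.199 in mesenchyme, 0.118 in mesothelium and between -0.0729 and 0.0836 in the other classes, over 2 pairs only.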

Additional observations from a re-analysis of the deposited data

Results flagged for a closer look

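Of the 22 members called in the epithelial interaction, 11 are among the genes named by rule. For these 11 the organ difference (uterus minus oviduct) in the epithelium was unlike that in mesenchyme by edgeR's interaction test. The excess in the epithelium, on the log2 scale, was 1.45 for Ccne2, 1.21 for Prc1, 1.05 for Knl1, 1.01 for Mki67, 0.93 for Top2a, 0.88 for Aurkb, 0.87 for Ccna2, 0.83 for Ccnb1, 0.67 for Ccnb2 and 0.51 for Cdc20. Ung differed the other way, by -1.09. With each cell thinned to 5000 UMIs the calls on Prc1, Top2a and Mki67 held and the other 8 were lost. DESeq2 did not call Ung, Aurkb, Ccnb1, Ccnb2 or Cdc20. Without uterus replicate 2 the calls on Ccne2, Aurkb, Ccnb1, Ccnb2 and Cdc20 were lost, and those on Aurkb, Ccnb1, Ccnb2 and Cdc20 also without oviduct replicate 2. Without multiciliated cells those on Aurkb, Ccnb2 and Cdc20 were lost. Of the 8 members called in the smooth muscle interaction, 4 are among the genes named by rule, and their organ difference in smooth muscle lay below that in mesenchyme: by -0.63 for Prc1, -0.56 for Mki67, -0.56 for Top2a and -0.42 for Uhrf1, none of them called by DESeq2 or without uterus replicate 2; the call on Uhrf1 was also lost without oviduct replicate 2, and with thinned cells the call on Top2a alone held.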

How the results depend on the processing

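Of 542 values of named members over all alternatives 479 kept their side of the threshold, 13 gained and 50 lost the call. Among values called in the main fit or the alternative 0 reversed direction. Direction was not compared where neither fit called the member. The causes of the changes below were not tested. The counts below stand without the share of all genes called in the same fit. A changed count alone therefore does not show a change particular to the members. Counts of called members moved as follows. With cells thinned to 5000 UMIs they were 8 for endothelium and 9 for epithelium against mesenchyme, 12 for pericytes, 3 and 1 for the interactions of epithelium and smooth muscle, and 5, 1, 1 and 0 for the organ effect in epithelium, mesothelium, endothelium and pericytes. Without multiciliated cells they were 17 (organ effect) and 12 (interaction) in the epithelium, and with both changes 1, 2 and, against mesenchyme, 9. DESeq2 gave 9 and 0 for the interactions, and 1 and 3 for mesothelium and smooth muscle. Clusters in place of gates gave 13 for the epithelial interaction, 10 for the organ effect in mesothelium and 7 for pericytes against mesenchyme. With doublets kept there were 5 for the smooth muscle interaction and 0 for mesothelium, and with no filter on low counts 21, 11 and, in smooth muscle, 12. The replicate block gave 11 for mesothelium, and in the other classes it kept the count within 1.5 times. Leaving out each library gave counts of 14 to 19 for blood endothelium against mesenchyme, 6 to 19 for epithelium against mesenchyme, 10 to 25 for the epithelial interaction, 0 to 29 for the smooth muscle interaction, 11 to 22 for mesothelium against mesenchyme, 7 to 14 for myeloid against mesenchyme, 0 to 4 for the organ effect in blood endothelium, 19 to 31 for the organ effect in epithelium, 14 to 26 for the organ effect in mesenchyme, 3 to 14 for the organ effect in mesothelium, 0 to 1 for the organ effect in myeloid, 2 to 5 for the organ effect in pericyte, 7 to 11 for the organ effect in smooth muscle, 17 to 26 for pericyte against mesenchyme, 6 to 15 for smooth muscle against mesenchyme. For S shares (uterus minus oviduct, in points), no thinning gave -8.73 in epithelium, 14.8 in mesenchyme, 8.50 in mesothelium, 0.741 in pericytes and 14.0 in smooth muscle; a minimum of 3 UMIs gave 8.44 in mesenchyme, -3.64 in mesothelium and 13.3 in smooth muscle; a minimum of 8 gave 2.13, 0.351 and 0.986 there and -3.28 in pericytes. A score against control genes gave 10.4, -2.17, 13.3, -0.32 and, in endothelium, 1.20. Thinning to 2000 UMIs gave 8.69 in epithelium and -0.676 in pericytes, and to 10000 UMIs -4.38 in pericytes and 1.10 in smooth muscle. G2/M shares moved to 0.248 (endothelium) and 11.2 (epithelium) without thinning and to 14.2 (epithelium) at 2000 UMIs. By less than the spread between libraries but over 1.5 times, they also moved to 2.78 in endothelium at 2000 UMIs (organs overlapped), 8.97 in mesenchyme with clusters, -8.66 in mesothelium at 10000 UMIs and, in smooth muscle, 4.15 without thinning and 0.838 at 10000 UMIs (organs overlapped). The epithelial S sum moved to 0.56 without multiciliated cells and the mesenchymal G2/M sum to 0.42 with clusters. Other sums moved within the spread: pericyte S to -0.12 with clusters (organs overlapped), mesothelial G2/M to -0.27 with doublets kept, and endothelial G2/M to 0.17 with doublets kept (organs overlapped) and 0.51 when thinned. Clusters gave no smooth muscle class, and stricter cell filters and thinning to 5000 or 10000 UMIs left too few myeloid cells for a value.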

Other observations

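Cells that passed no gate held G2/M sums of 1553 and 2492 CPM (oviduct) and 1844 and 1952 (uterus). Of these cells 15.2% and 10.8% were called S for the oviduct, against 20.3% and 19.7% for the uterus, and 15.5% and 25.3% against 17.9% and 24.6% were called G2/M. With clusters in place of gates, the cells left without a class had G2/M shares of 17.5% and 3.23% (oviduct) against 4.90% and 3.14% (uterus).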
